A study of Homo sapiens with 8 samples.

Results

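The unfolded protein response and ATF4 program was followed through 43 named genes of the 28395 in the count table, all of which were found and all of which passed the filter on low values (a normalized count of at least 10 in at least 2 libraries). The genes had been chosen by name, with earlier results of these data known. The chaperone arm of 16 genes holds 12 chaperones or other folding and degradation genes and a sensor group of 4. That group is the stress sensor genes ERN1, ATF6 and EIF2AK3 and the sensor target XBP1. The ATF4 arm of 27 genes holds 12 regulators, 8 amino acid and one-carbon enzymes, 4 amino acid transporters and 3 secreted or surface proteins. The cells were A-498, an established human kidney cancer line, grown for 24 hours without confluence. Control line 1 and control line 2 carried non-targeting guide RNAs sgRNA-1 and sgRNA-2 with a wild type genotype, and the lines labelled ANXA4 KO-1 and ANXA4 KO-2 carried ANXA4 guides sgRNA-1 and sgRNA-2. They are called the guide 1 line and the guide 2 line here. Each of the 4 lines gave 2 replicate libraries of polyA RNA, 8 in all. Each guide was present as 1 line, so the effect of a guide and a difference between lines cannot be told apart, and the labels did not say whether a line was a clone or a pool. Nothing in the labels said that replicates were separate cultures, so p-values measure the spread between these libraries, which may be technical.

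When unfolded proteins build up in the endoplasmic reticulum (ER), the sensors ATF6 and IRE1 (gene ERN1) raise ER chaperones, the latter through splicing of XBP1, and the sensor PERK (gene EIF2AK3) phosphorylates the translation factor eIF2 alpha. Phosphorylated eIF2 alpha lowers protein synthesis in general while favouring translation of ATF4, a transcription factor for genes of amino acid synthesis, amino acid import and stress signalling. Other kinases phosphorylate the same factor, among them GCN2 in amino acid shortage, so ATF4 target genes can move without ER chaperones. Because ATF4 is largely set by translation and XBP1 by splicing, gene-level RNA counts do not read their activity.

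Known response elements were looked for in the promoters of both arms. The genes had been listed as ER chaperones, stress regulators and ATF4-linked genes, so such elements could be foreseen in them. The shares below are therefore a description and not a test. RefSeq promoters (GRCh38.p14, 250 bases before to 50 after the start) were matched by Entrez id for 38 of the 43 genes. Only the first listed start of each gene was read. The ER stress response element, CCAAT and, 9 bases on, CCACG on either strand, was in 5 of 15 chaperone-arm promoters and 0 of 23 ATF4-arm promoters, against 0.0806% of 27305 promoters. Its variant, ATTGG and, 1 base on, CCACG, was in 3 of 15 and 0 of 23, against 0.0549%. The amino acid response element TGATGNAA on either strand, to which ATF4 binds with CEBP partners, was in 5 of 23 ATF4-arm promoters (ASNS, ATF3, CHAC1, SLC3A2 and SLC7A1) and 1 of 15 chaperone-arm promoters, HERPUD1, against 3.67%. A match describes the letters and is not a bound site, and a promoter without a match was read no further. The stretches shown carry these elements, or their reverse complement, in capitals and were picked as examples of each element and its variant: HSPA5 (chr9:125241351-125241449, minus strand), CALR (chr19:12938359-12938442, plus strand), CANX (chr5:179698738-179698836, plus strand), the sensor target XBP1 (chr22:28800563-28800661, minus strand), HERPUD1 (chr16:56931926-56932075, plus strand), which holds one element of each arm, ASNS (chr7:97872429-97872516, minus strand) and CHAC1 (chr15:40953222-40953309, plus strand). Each is written 5′ to 3′ along its gene.
HSPA5: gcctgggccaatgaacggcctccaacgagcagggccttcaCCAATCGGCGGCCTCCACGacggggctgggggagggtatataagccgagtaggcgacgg
CALR: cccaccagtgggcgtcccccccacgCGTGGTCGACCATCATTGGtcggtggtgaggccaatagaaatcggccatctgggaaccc
CANX: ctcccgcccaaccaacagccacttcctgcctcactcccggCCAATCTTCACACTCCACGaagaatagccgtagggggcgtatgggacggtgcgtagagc
XBP1: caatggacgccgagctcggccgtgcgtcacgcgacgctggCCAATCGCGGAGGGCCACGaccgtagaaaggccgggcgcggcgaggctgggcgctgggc
HERPUD1: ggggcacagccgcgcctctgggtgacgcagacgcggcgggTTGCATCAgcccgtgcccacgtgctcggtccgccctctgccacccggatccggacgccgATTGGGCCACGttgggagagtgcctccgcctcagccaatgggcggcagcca
ASNS: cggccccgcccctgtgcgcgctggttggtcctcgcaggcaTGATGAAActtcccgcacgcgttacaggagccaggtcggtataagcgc
CHAC1: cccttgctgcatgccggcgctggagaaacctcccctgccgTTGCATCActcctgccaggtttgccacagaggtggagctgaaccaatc

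In HSPA5 the element began 66 bases before the start and in XBP1 52 bases before it. In ASNS, the asparagine synthetase gene, the amino acid response element began 68 bases before the start. HERPUD1 carried the amino acid response element 176 bases and the ER stress variant 117 bases before its start.

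Depth was 15784890 to 22631588 reads per library, and replicate 2 had fewer reads than replicate 1 in all 4 lines. Mitochondrial genes held 4.67% to 13.8% of reads, and the guide 2 line went from 6.40% to 13.8% between replicates. ANXA4, the targeted gene, which encodes the calcium-dependent membrane-binding protein annexin A4, had normalized counts of 2821 and 3614 in control line 1, 3858 and 6773 in control line 2, 236 and 234 in the guide 1 line and 3433 and 4142 in the guide 2 line. It was low only in the guide 1 line, and the counts show no loss of ANXA4 RNA in the line labelled ANXA4 KO-2. Whether that line lost the protein was not tested, so directions drawn from it are those of a labelled line. Of the 6 kidney markers, 5 were found and all were detected, PAX8, KRT8, KRT18 and VIM abundantly and CA9 at low counts. Their summed level was 87710.0 to 114587 in control and 80068 to 124905 in KO-labelled libraries. Of 10 markers of other cell types, 7 stayed at or below 4.53 in every library (PTPRC, CD3E, PECAM1, VWF, CDH5, COL3A1 and DCN), and the list's sum was 2339 to 5306 in control and 3312 to 4926 in KO-labelled libraries. In the guide 2 line KRT8 (0.64 ± 0.14, log2 difference ± SE) and KRT18 (0.66 ± 0.15) were higher than in controls and COL1A1 was lower in the guide 1 line (-2.28 ± 0.22) and in the guide 2 line (-1.03 ± 0.22). The part of these in the results was not tested. In the GENCODE annotation, exons of CALR, CANX, PDIA3, PDIA6, HSP90B1, HYOU1, DNAJB9, EIF2AK3, ATF5, DDIT3, DDIT4, CEBPB, SHMT2, MTHFD2, SLC7A5, SLC7A11 and VLDLR overlap a gene on the opposite strand. Strand use in counting is not given in the sources used here, so reads of such pairs may be shared.

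The study asked what loss of ANXA4 does to the transcriptome. When the 4 KO-labelled libraries were compared with the 4 control libraries, none of the 43 genes passed (limma on log2(normalized count + 1) with line as a random block, Benjamini-Hochberg adjusted p under 0.05 over the 14040 genes tested), and 0.235% of all genes did, 0.128% higher and 0.107% lower. Unadjusted p was under 0.05 for 8 of the 43 members, against 1615 of the 14040 genes tested. edgeR and DESeq2, both fitted without the shared line, called 0 (against 1.32% of all genes) and 6 (against 6.04%; DDIT4, SESN2, NUPR1 and CTH higher, CEBPB and VLDLR lower). limma with a mean per line, which takes replicates for the spread, called 9, against 10.5%. The median log2 difference was -0.16 in the chaperone arm and 0.24 in the ATF4 arm, and 0.00 over all genes. In 6 members the KO-labelled and control libraries did not overlap. HERPUD1, DDIT4, SESN2 and NUPR1 lay above all controls and CEBPB and VLDLR lay under them. That is 6 of 43, against 10.6% of all genes tested, 5.11% above and 5.51% under. The lines labelled KO differ in ANXA4 RNA itself, so each was then compared with the controls on its own. A bulk difference in RNA cannot tell fewer cells of a kind from less RNA per cell.

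In the guide 1 line, 3 of 43 members were called against both control lines, all in the ATF4 arm and all higher: DDIT4, SESN2 and CTH. Of all genes, 7.01% were called, 3.82% higher and 3.18% lower, so the count of members was near the background. The median log2 difference was 0.42 in the ATF4 arm and -0.10 in the chaperone arm. In the guide 2 line 8 members were called, 1 higher (DDIT4) and 7 lower, against 11.2% of all genes, 4.54% higher and 6.67% lower. The 7 were the chaperone-arm genes HSPA5, PDIA6, HYOU1 and EIF2AK3 and the ATF4-arm genes CEBPB, SLC7A1 and VLDLR. Both comparisons use the same control libraries. edgeR called the same members in both (7.57% and 11.0% of all genes), and DESeq2 called 9 in the guide 1 line and 8 in the guide 2 line, against 10.2% and 13.1% of all genes. In the guide 1 line 9 members were called without the first replicate of control line 2, when 6.62% of all genes were. There was 1 called member without either library of control line 1 or the second replicate of the guide 1 line, when calls over all genes had also dropped, from 984 to 398, 331 and 148. In the guide 2 line 3 or 4 were called without either library of control line 1 or of the guide 1 line, or without the first replicate of the guide 2 line, against 5.83% to 8.11% of all genes.

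Replicate numbers ran through these values, and a fit with the replicate number as a block gave other counts. In the paired check, the differences between replicate 2 and replicate 1 correlated across genes between every pair of lines, so the numbers were taken as paired, though the labels do not say what they mark. With the block, 24 members were called in the guide 1 line (17 higher and 7 lower, against 24.4% of all genes, 13.0% higher and 11.4% lower) and 21 in the guide 2 line (11 higher and 10 lower, against 27.4%, 12.5% higher and 14.9% lower). In the guide 1 line these were 13 of 27 ATF4-arm genes higher and 4 lower, and 4 of 16 chaperone-arm genes higher and 3 lower. In the guide 2 line they were 10 of 27 ATF4-arm genes higher and 3 lower, and 1 of 16 chaperone-arm genes higher and 7 lower. For KO against control labels it called 0, against 0.264% of all genes, 0.128% higher and 0.135% lower.

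**Figure D1:**
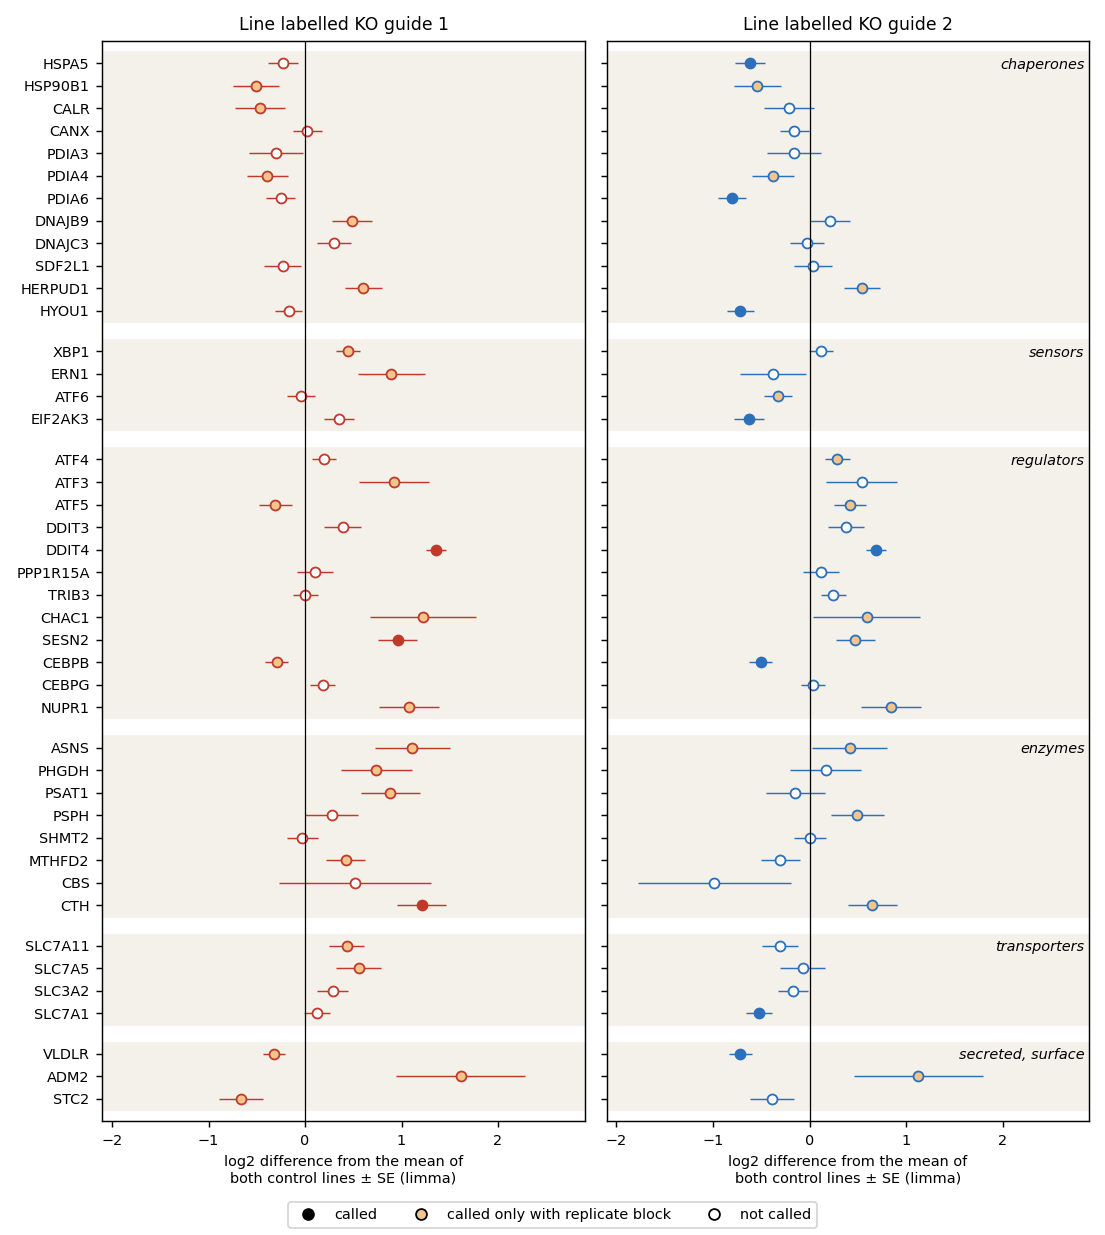
Log2 difference of each KO-labelled line from the mean of both control lines (horizontal axis) for the 43 genes by role, with bars of 1 SE from limma. Solid points are called without the replicate block (3 in the guide 1 line and 8 in the guide 2 line), and orange points only with it; most enzymes lie to the right of 0 in the guide 1 line, and HSPA5, PDIA6 and HYOU1 are solid and left of 0 in the guide 2 line.

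In the test of replicate 2 against replicate 1 within lines, 19 of 43 members were called, 7 higher and 12 lower in replicate 2, against 17.6% of all genes, 8.97% higher and 8.62% lower. Taken whole, the arms went opposite ways, but not in every group of genes. In the sensor group 0 of 4 were called, with a median log2 difference of -0.04. Of the 12 regulators 1 was higher and 2 lower, with a median of -0.05. In the chaperone arm 6 of 16 were higher and 1 lower, with a median log2 difference of 0.20, and in the ATF4 arm 1 of 27 was higher and 11 lower, with a median of -0.25. The falls of CBS and ADM2 were known when the genes were chosen, and without them 10 members were lower, 9 of them among the other 25 genes of the ATF4 arm, whose median was -0.24. With libraries scaled to equal totals the split became 5 higher and 17 lower, and that of all genes went from 1260 higher and 1210 lower to 795 and 1867, with a median of all genes of -0.07. Without either library of control line 2, 9 of the 19 calls were left (2 higher and 7 lower, CBS and ADM2 among the 7), while calls over all genes fell to 5.08% without its first replicate and 5.05% without its second. Total reads, and in 3 lines the mitochondrial share, also differed between the replicates, and their part was not tested.

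Counted by line, replicate 2 exceeded replicate 1 in all 4 lines for 10 of 16 chaperone-arm genes and 1 of 27 ATF4-arm genes, against 20.2% of all genes. It was under replicate 1 in all 4 lines for 2 of 16 and 13 of the 25 left in the ATF4 arm without CBS and ADM2, whose fall was known from the choice of genes, against 19.3%. The 7 enzymes other than CBS were all among the 13. Over the 64 line-by-gene pairs of the chaperone arm, replicate 2 was higher in 48, and over the 100 pairs of those 25 genes it was lower in 76. The pairs come from the same libraries and are not separate observations. No count of pairs over all genes is given here, so these counts are a description.

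**Figure D2:**
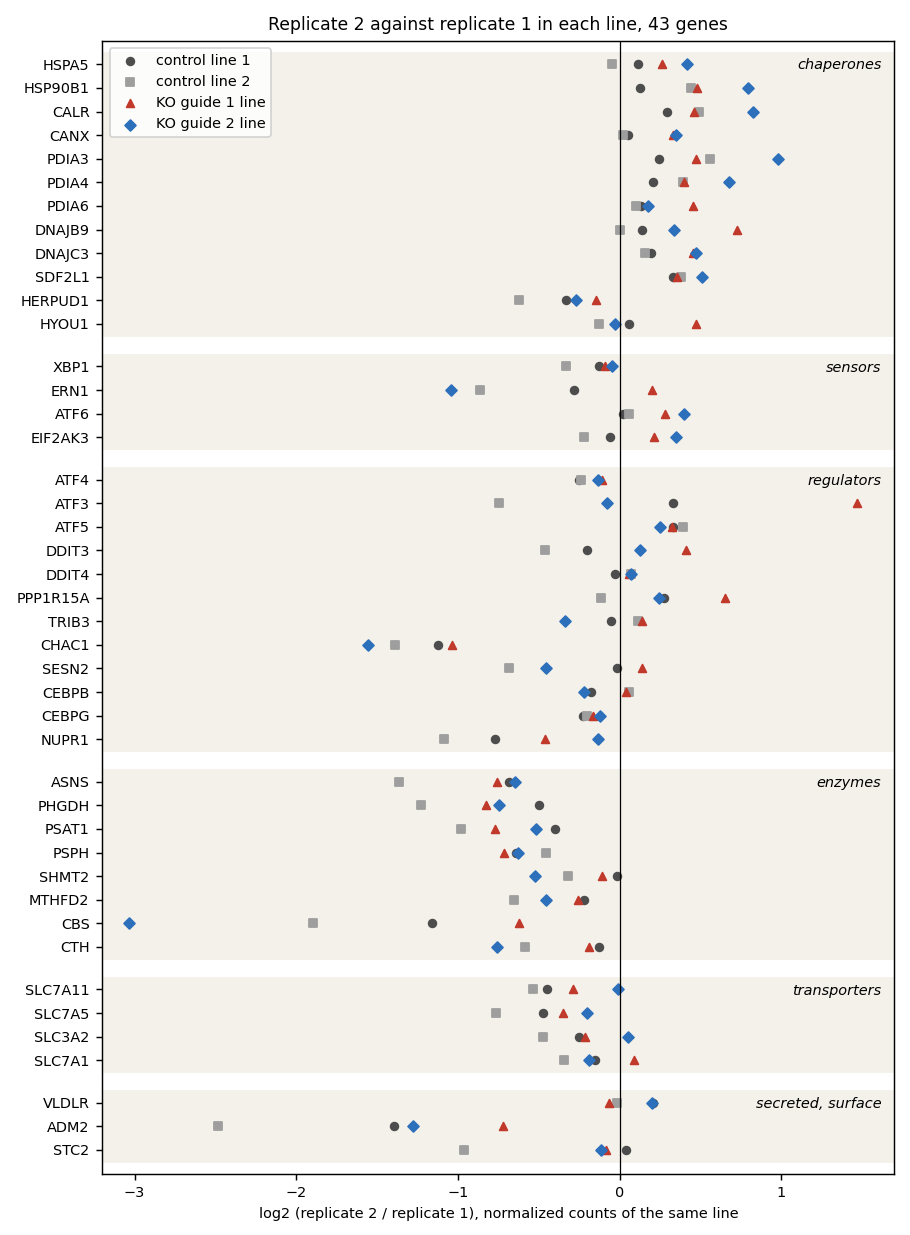
Log2 ratio of replicate 2 to replicate 1 (horizontal axis) in each of the 4 lines (points) for the 43 genes, by role. The enzymes lie left of 0 in every line (for CBS this was known from the choice of genes), and 9 of the 12 chaperones lie right of 0 in every line.

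HSPA5 (Entrez 3309) encodes BiP, the main ER chaperone, which also holds the sensors inactive. Its normalized counts in replicates 1 and 2 were 23890.2 and 25843 in control line 1, 22069 and 21381 in control line 2, 18170.2 and 21789.6 in the guide 1 line and 13131 and 17532 in the guide 2 line. All 4 control libraries were higher than both libraries of the guide 2 line, and the first replicate was the lowest. Against controls the log2 difference of the guide 2 line was -0.61, SE 0.16, limma adjusted p 0.0375. The call was lost when any library but the second replicate of the guide 2 line was left out (limma adjusted p 0.0258 to 0.17 over the 8 fits). It was also lost with no filter on low values. For the guide 1 line the log2 difference was -0.22, SE 0.16, limma adjusted p 0.417.

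PDIA6, a protein disulfide isomerase that acts with BiP, had counts of 7096 and 7776 in control line 1, 6162 and 6597 in control line 2, 4927 and 6762 in the guide 1 line and 3706 and 4189 in the guide 2 line. Both libraries of the guide 2 line lay under every other library. It differed from controls by -0.80, SE 0.15, limma adjusted p 0.0109, and the call was lost without the first replicate of the guide 2 line (limma adjusted p up to 0.0578). HYOU1, an ER co-chaperone that exchanges the nucleotide of BiP, had counts of 4539 and 4729 in control line 1, 3911 and 3586 in control line 2, 3142 and 4361 in the guide 1 line and 2557 and 2509.7 in the guide 2 line. The guide 2 line was again under every other library, with a log2 difference of -0.72, SE 0.14, limma adjusted p 0.0148. Its call was lost without either library of the guide 2 line or without the second replicate of control line 1 (limma adjusted p 0.0135 to 0.0577 over the 8 fits). With the replicate block HSP90B1 (limma adjusted p 0.00826) and PDIA4 (0.025) were also lower in this line.

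Of the 12 chaperone genes, 6 were called higher in replicate 2. CALR, the gene of the lectin chaperone calreticulin, had counts of 33088 and 40541 in control line 1, 30629 and 43123 in control line 2, 22458 and 30914 in the guide 1 line and 23591 and 41825 in the guide 2 line. Replicate 2 was higher in all 4 lines, and the log2 difference was 0.52, SE 0.10, limma adjusted p 0.00731. PDIA3, the disulfide isomerase that works with calreticulin, had 7137 and 8454 in control line 1, 8422 and 12413 in control line 2, 6148 and 8540.1 in the guide 1 line and 5674 and 11178 in the guide 2 line. It too was higher in replicate 2 of every line, with a log2 difference of 0.56, SE 0.11, limma adjusted p 0.00552, and was called in all 8 fits that left out a library.

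PDIA4, another disulfide isomerase, had 15763 and 18171 in control line 1, 12929.7 and 16983 in control line 2, 10529 and 13888 in the guide 1 line and 9626 and 15417 in the guide 2 line, and HSP90B1, the ER member of the HSP90 family, had 21423 and 23422 in control line 1, 18460.2 and 25025 in control line 2, 13075 and 18226 in the guide 1 line and 11438 and 19860.1 in the guide 2 line. Both were higher in replicate 2 of every line. Between replicates the log2 difference was 0.42, SE 0.09, limma adjusted p 0.0106 for PDIA4 and 0.46, SE 0.11, limma adjusted p 0.0128 for HSP90B1. Without control line 2 the calls of CALR, PDIA4 and HSP90B1 were lost, with limma adjusted p up to 0.0528, 0.0644 and 0.074, and that of HSP90B1 also without the guide 2 line. With the block, CALR, HSP90B1 and PDIA4 were called lower in the guide 1 line (limma adjusted p 0.0187, 0.0136 and 0.025).

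SDF2L1, a partner of BiP and its cofactors, had 798 and 1003 in control line 1, 956 and 1243 in control line 2, 743 and 952 in the guide 1 line and 849 and 1207 in the guide 2 line. DNAJC3, an inhibitor of PERK and a BiP cofactor, had 888 and 1018 in control line 1, 910.3 and 1013 in control line 2, 1005 and 1378 in the guide 1 line and 795 and 1105 in the guide 2 line. Both were higher in replicate 2 of each line, with a log2 difference of 0.39, SE 0.08, limma adjusted p 0.00717 for SDF2L1 and of 0.32, SE 0.09, limma adjusted p 0.0259 for DNAJC3. SDF2L1 was called in all 8 fits that left out a library and DNAJC3 in 0 of 8 (limma adjusted p 0.053 to 0.0952).

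HERPUD1, which serves the degradation of ER proteins and whose promoter holds one element of each arm, was the one chaperone-group gene lower in replicate 2 of all 4 lines. Its counts were 993 and 789 in control line 1, 810.5 and 527 in control line 2, 1217 and 1102 in the guide 1 line and 1219 and 1012 in the guide 2 line. All 4 KO-labelled libraries were above all 4 control libraries, and control line 2 held the lowest one. The replicate difference was -0.34, SE 0.09, limma adjusted p 0.0252, a call kept only without either library of the guide 1 line (limma adjusted p 0.0225 to 0.153 over the 8 fits). Against controls the log2 difference was 0.61, SE 0.19, limma adjusted p 0.092 in the guide 1 line and 0.55, SE 0.19, limma adjusted p 0.102 in the guide 2 line, and with the block limma adjusted p was 0.00226 and 0.00345.

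The remaining chaperone-arm genes passed in fewer comparisons. CANX, the membrane lectin chaperone calnexin, lay between 15334 and 22023 and was called in none of the 6 comparisons with or without the block. DNAJB9, a BiP cofactor that serves IRE1, lay between 259 and 545, with the highest count in the second replicate of the guide 1 line, and was called only with the block, in that line (0.49 ± 0.21, limma adjusted p 0.0308).

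Of the 4 genes in the sensor group, EIF2AK3 (PERK) was called. Its counts were 447 and 428 in control line 1, 411 and 353 in control line 2, 485 and 562 in the guide 1 line and 234 and 298 in the guide 2 line. The guide 2 line held the 2 lowest libraries and the guide 1 line the 2 highest. The log2 difference was -0.63, SE 0.15, limma adjusted p 0.0319 in the guide 2 line against controls, 0.35, SE 0.15, limma adjusted p 0.2 in the guide 1 line, and -0.98, SE 0.18, limma adjusted p 0.0175 between the guide 2 and guide 1 lines. The first of these was called only without the second replicate of control line 2 or of the guide 2 line among the 8 fits (limma adjusted p 0.0333 to 0.15). The last was lost without either library of the guide 1 line (limma adjusted p up to 0.156).

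XBP1, the transcription factor whose message IRE1 splices, had 1637 and 1501 in control line 1, 1764 and 1399 in control line 2, 2208 and 2074 in the guide 1 line and 1734 and 1679 in the guide 2 line. Both libraries of the guide 1 line were above all others. Its log2 difference there was 0.45, SE 0.13, limma adjusted p 0.0671, and limma adjusted p was 0.00561 with the block. ERN1 (IRE1), at 26.6 to 101, was highest in the guide 1 line. With all 8 libraries it was called only with the block, in that line against controls (0.90 ± 0.34, limma adjusted p 0.0259) and in the guide 2 against the guide 1 line (-1.28 ± 0.40, limma adjusted p 0.00933). Some fits that left out a library called ERN1 without the block, between these lines or between replicates. ATF6, at 754 to 1169, was called only with the block in the guide 2 line (-0.32 ± 0.14, limma adjusted p 0.0416).

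Among the 12 regulators, ATF4 itself (Entrez 468) had 5232 and 4397 in control line 1, 5818 and 4939.7 in control line 2, 6039.8 and 5590.02 in the guide 1 line and 6491 and 5913 in the guide 2 line. The values overlapped between controls and KO-labelled lines, and replicate 2 was lower in each line. The log2 difference was 0.20, SE 0.13, limma adjusted p 0.388 in the guide 1 line, 0.29, SE 0.13, limma adjusted p 0.192 in the guide 2 line, where limma adjusted p was 0.032 with the block, and -0.18, SE 0.07, limma adjusted p 0.103 between replicates. DDIT3, the gene of the stress factor CHOP, had 279 and 242 in control line 1, 222 and 161 in control line 2, 252 and 335 in the guide 1 line and 276 and 302 in the guide 2 line. These overlapped, and DDIT3 was called in no comparison with or without the block. Exons of DDIT3 overlap those of MARS1 and MBD6 on the opposite strand and of a same-strand gene model. MARS1, a tRNA synthetase gene, was lower in replicate 2 (-0.71 ± 0.10).

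DDIT4 (REDD1, an inhibitor of the growth kinase complex mTORC1; Entrez 54541) was called in every comparison of single lines. Its counts were 3224 and 3165 in control line 1, 1617 and 1699 in control line 2, 5779.9 and 6026 in the guide 1 line and 3627 and 3804 in the guide 2 line. The guide 1 line was highest, the guide 2 line next, then control line 1 and control line 2, with no overlap between lines and little difference between replicates. The log2 difference from controls was 1.36, SE 0.10, limma adjusted p 0.000385 in the guide 1 line and 0.69, SE 0.10, limma adjusted p 0.00456 in the guide 2 line, and both were called in all 8 fits that left out a library. DDIT4 also differed between the control lines, where 1 member was called, against 2.13% of all genes, 1.05% higher and 1.08% lower. Control line 2 held less than control line 1 (-0.95, SE 0.12, limma adjusted p 0.00844), and the call was lost without either library of control line 1 (limma adjusted p up to 0.0921).

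Between the guide 2 and the guide 1 line 3 members were called, all lower in the guide 2 line, against 6.94% of all genes, 2.41% higher and 4.53% lower: DDIT4, EIF2AK3 and SLC7A1. For DDIT4 the log2 difference was -0.67, SE 0.12, limma adjusted p 0.0163, lost without either library of the guide 1 line (limma adjusted p up to 0.148). DESeq2 called 9, against 9.84% of all genes, and the block called 18, against 24.5% of all genes (10.5% higher and 14.0% lower), 17 of them lower. Without either library of the guide 1 line the 3 calls made without the block were lost, and calls over all genes also dropped. Those fits hold 1 library of that line. The 17 included all 4 transporters and 5 of the 8 enzymes. The block called 5 between the control lines, all lower in control line 2, against 12.5% of all genes (5.68% higher and 6.79% lower): HERPUD1, DDIT4, CBS, SLC7A5 and STC2.

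SESN2, the gene of sestrin 2, which restrains mTORC1 when leucine is short, had 598 and 591 in control line 1, 573 and 357 in control line 2, 964 and 1059 in the guide 1 line and 844 and 614 in the guide 2 line. All KO-labelled libraries exceeded all controls, and the second replicate of control line 2 stood apart as the lowest. Its log2 difference was 0.96, SE 0.20, limma adjusted p 0.0279 in the guide 1 line and 0.47, SE 0.20, limma adjusted p 0.176 in the guide 2 line, where limma adjusted p was 0.0353 with the block. Leaving out either library of control line 1 or of the guide 1 line ended the call in the guide 1 line (limma adjusted p up to 0.211).

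NUPR1, a stress-induced chromatin protein, had 947 and 554 in control line 1, 819.9 and 386 in control line 2, 1578 and 1146 in the guide 1 line and 1201 and 1096 in the guide 2 line. All KO-labelled libraries were above all controls, and replicate 2 was lower in each line. Between replicates the log2 difference was -0.61, SE 0.13, limma adjusted p 0.00853, lost without control line 2 (limma adjusted p up to 0.0638). Against controls it was 1.07, SE 0.31, limma adjusted p 0.0726 in the guide 1 line and 0.84, SE 0.31, limma adjusted p 0.12 in the guide 2 line, and limma adjusted p was 0.00049 and 0.00183 with the block. Within replicates 1 and 2 the guide 1 line was 1.79 and 2.44 times the control mean, and the guide 2 line 1.36 and 2.33 times.

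CHAC1, an enzyme that degrades glutathione and a marker of ATF4 activity, had 92.9 and 42.6 in control line 1, 145 and 55.5 in control line 2, 254 and 123 in the guide 1 line and 195 and 66.4 in the guide 2 line. Replicate 2 was lower in every line, by a log2 difference of -1.26, SE 0.14, limma adjusted p 0.000433, called in all 8 fits that left out a library. Within each replicate number both KO-labelled lines exceeded the control mean, at 2.13 and 2.52 times it in the guide 1 line and 1.64 and 1.35 times in the guide 2 line. Without the block neither was called (1.22 ± 0.55, limma adjusted p 0.22, and 0.59 ± 0.55, 0.553), and with it limma adjusted p was 0.000449 and 0.0245.

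CEBPB, a leucine zipper partner of ATF4, had 1808 and 1599 in control line 1, 1716 and 1789 in control line 2, 1387 and 1425 in the guide 1 line and 1311 and 1126 in the guide 2 line. Every KO-labelled library was under every control library. The log2 difference was -0.51, SE 0.12, limma adjusted p 0.0263 in the guide 2 line, called in 2 of the 8 fits that left out a library (limma adjusted p 0.0376 to 0.123), and it was kept only without the first replicate of control line 2 or of the guide 2 line. For the guide 1 line it was -0.30, SE 0.12, limma adjusted p 0.166, and limma adjusted p was 0.0472 with the block. ATF5, a factor related to ATF4, had 871 and 1095 in control line 1, 973 and 1277 in control line 2, 754 and 944 in the guide 1 line and 1280.4 and 1523 in the guide 2 line. It was the 1 ATF4-arm gene higher in replicate 2 of all 4 lines, with a log2 difference of 0.32, SE 0.08, limma adjusted p 0.0146, lost without either control line (limma adjusted p up to 0.0879). With the block ATF5 was lower in the guide 1 line (limma adjusted p 0.0318) and higher in the guide 2 line (0.0056).

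ATF3, a stress-induced repressor, lay between 229 and 1075, with the highest count in the second replicate of the guide 1 line. With all libraries kept, limma called it in that line only with the block (0.92 ± 0.37, limma adjusted p 0.0427). DESeq2 called it there without a block. PPP1R15A (GADD34, which reverses eIF2 alpha phosphorylation), at 1731 to 2725, TRIB3, a pseudokinase induced by ATF4 and CHOP, at 1484 to 2120.1, and CEBPG, another ATF4 partner, at 1033 to 1439, were called in no comparison with or without the block. With equal library totals CEBPG was called lower in replicate 2.

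**Figure D3:**
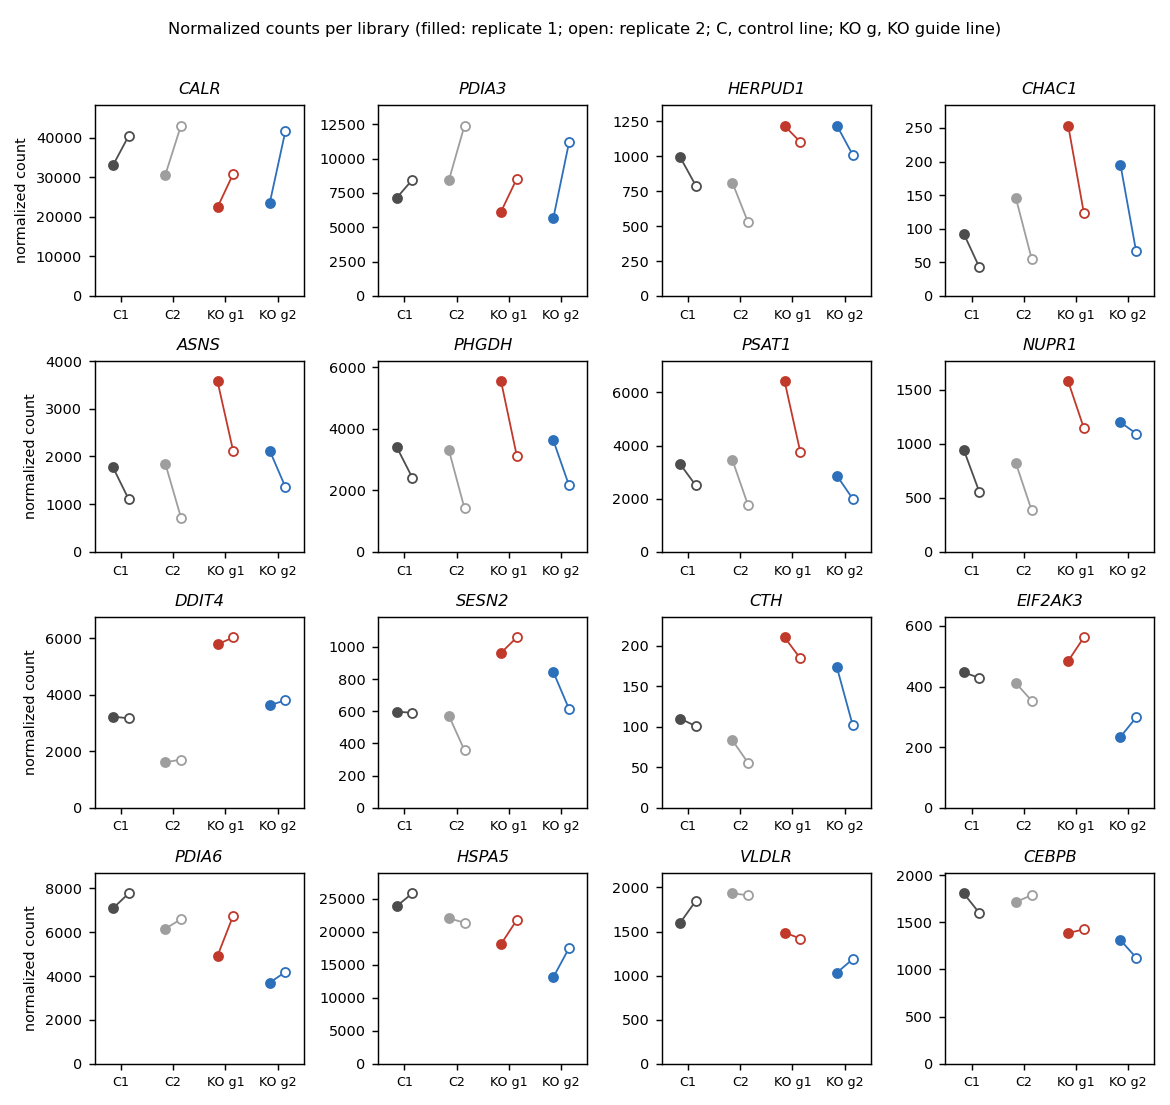
Normalized count per library (vertical axes start at 0) for 16 of the genes, with replicate 1 filled and replicate 2 open and joined within each line (C1 and C2, control lines; KO g1 and KO g2, lines labelled KO). DDIT4 keeps its order of lines in both replicates, ASNS and CHAC1 are lower in replicate 2 of all 4 lines, and CALR and PDIA3 are higher.

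Apart from CBS, whose fall was known beforehand, the 7 enzymes were all lower in replicate 2 of all 4 lines, and 5 were called. ASNS (Entrez 440), which makes asparagine, had 1769.9 and 1101 in control line 1, 1851 and 718 in control line 2, 3573 and 2109.9 in the guide 1 line and 2119 and 1356 in the guide 2 line. The guide 1 line was the highest line in each replicate, and its second replicate lay near the first replicate of the guide 2 line. Between replicates the log2 difference was -0.86, SE 0.11, limma adjusted p 0.000862. Within replicates 1 and 2 the guide 1 line was 1.97 and 2.32 times the control mean. Without the block its log2 difference from controls was 1.11, SE 0.39, limma adjusted p 0.124, and with it limma adjusted p was 0.00015.

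Serine is made in 3 steps. PHGDH, the first enzyme, had 3413 and 2414 in control line 1, 3308 and 1413 in control line 2, 5538 and 3126 in the guide 1 line and 3622 and 2159.6 in the guide 2 line. PSAT1, the next, had 3303 and 2499 in control line 1, 3456 and 1754 in control line 2, 6412 and 3757 in the guide 1 line and 2869 and 2005 in the guide 2 line. The guide 1 line was highest in each replicate, and replicate 2 was lower in each line, with a log2 difference of -0.82, SE 0.10, limma adjusted p 0.000735 for PHGDH and -0.67, SE 0.10, limma adjusted p 0.00151 for PSAT1. Compared with controls the guide 1 line differed by 0.74 ± 0.37 (limma adjusted p 0.264, with the block 0.00143) for PHGDH and 0.88 ± 0.31 (0.122, with the block 0.000266) for PSAT1. PSPH, the last enzyme of the pathway, had 1404 and 899 in control line 1, 1533 and 1119 in control line 2, 1883 and 1147 in the guide 1 line and 2123 and 1374 in the guide 2 line. It was highest in the guide 2 line in each replicate, with a difference of 0.49 ± 0.27 from controls (limma adjusted p 0.295, with the block 0.00247), and was lower in replicate 2 of each line (log2 difference -0.61, SE 0.08, limma adjusted p 0.000862). The replicate calls of ASNS, PHGDH, PSAT1 and PSPH were made in all 8 fits that left out a library.

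MTHFD2, a mitochondrial folate enzyme, had 3638 and 3123 in control line 1, 3739 and 2378 in control line 2, 4648 and 3885 in the guide 1 line and 3005 and 2196 in the guide 2 line. It was lower in replicate 2 of each line, with a log2 difference of -0.40, SE 0.09, limma adjusted p 0.0105, a call lost without control line 2 (limma adjusted p up to 0.0851). The guide 1 line was highest in each replicate and the guide 2 line lowest, and with the block limma adjusted p was 0.0126 for the guide 1 line against controls and 0.00141 for the guide 2 against the guide 1 line. SHMT2, which feeds the same pathway from serine, lay between 3807 and 5483 and was not called in any comparison with or without the block. With equal library totals SHMT2 was called lower in replicate 2.

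CTH, which makes cysteine from cystathionine, had 110.3 and 101 in control line 1, 83.5 and 55.5 in control line 2, 211 and 185 in the guide 1 line and 174 and 103 in the guide 2 line. Both guide 1 libraries exceeded every other library. The log2 difference from controls was 1.21, SE 0.26, limma adjusted p 0.0282 in the guide 1 line, and the call was lost in 5 of the 8 fits, those without a library of control line 1, without a library of the guide 1 line or without the second replicate of control line 2 (limma adjusted p up to 0.209). In the guide 2 line it was 0.65, SE 0.26, limma adjusted p 0.143, and with the block limma adjusted p was 0.0174.

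CBS, the enzyme before CTH in the same pathway, is a description only, since its fall between replicates was stated with the choice of genes. Its counts were 219 and 97.8 in control line 1, 92.9 and 24.9 in control line 2, 150.3 and 97.5 in the guide 1 line and 119 and 14.5 in the guide 2 line, and the lowest rested on 12 reads. Replicate 2 was lower in each line. The table also lists CBSL (Entrez 102724560), a near-identical copy, at 51.5 and 7.28 in control line 1, 20.6 and 6.80 in control line 2, 31.3 and 4.15 in the guide 1 line and 5.17 and 1.21 in the guide 2 line. Reads can be split between the copies, so the level of CBS is uncertain. The copy was also lower in replicate 2 of each line.

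Of the 4 transporters, SLC7A11, the cystine importer, had 5194 and 3797 in control line 1, 5258 and 3624 in control line 2, 6558 and 5368 in the guide 1 line and 3569 and 3548 in the guide 2 line, and SLC7A5, the large neutral amino acid transporter, had 20284 and 14579 in control line 1, 15315 and 9000.3 in control line 2, 23584 and 18507 in the guide 1 line and 14534 and 12637 in the guide 2 line. In both, replicate 2 was lower in each line and the guide 1 line was highest in each replicate. The log2 difference between replicates was -0.32, SE 0.09, limma adjusted p 0.032 for SLC7A11 and -0.45, SE 0.10, limma adjusted p 0.011 for SLC7A5. The first call was kept only without either library of the guide 2 line (limma adjusted p 0.017 to 0.187 over the 8 fits), and the second was lost without control line 2 (up to 0.0966). Against controls the guide 1 line was called for both with the block (limma adjusted p 0.0155 and 0.00602).

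SLC7A1, the cationic amino acid transporter, had 3012 and 2713 in control line 1, 2774 and 2187 in control line 2, 2802 and 2982 in the guide 1 line and 1971 and 1726 in the guide 2 line. Both guide 2 libraries lay under all others. SLC7A1 differed by -0.52, SE 0.13, limma adjusted p 0.0374 from controls and -0.65, SE 0.15, limma adjusted p 0.0422 from the guide 1 line. The first was called in 1 of the 8 fits that left out a library, that without the second replicate of control line 2 (limma adjusted p 0.0255 to 0.154), and the second was lost without a library of control line 1 or of the guide 1 line or without the second replicate of the guide 2 line (0.0328 to 0.241). SLC3A2, the heavy chain that SLC7A5 and SLC7A11 need at the membrane, lay between 6470.4 and 11291. In the deposited scaling it was called only with the block, between the guide 2 and guide 1 lines (-0.46 ± 0.18, limma adjusted p 0.0232). With equal library totals SLC3A2 was also called lower in replicate 2.

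Of the 3 secreted or surface genes, VLDLR, the very low density lipoprotein receptor, had 1599 and 1848 in control line 1, 1933 and 1911 in control line 2, 1488 and 1420.1 in the guide 1 line and 1033 and 1185 in the guide 2 line. All KO-labelled libraries were under all controls, and the guide 2 line was the lowest. Against controls the log2 difference was -0.72, SE 0.12, limma adjusted p 0.00693 in the guide 2 line, called in all 8 fits that left out a library, and -0.32, SE 0.12, limma adjusted p 0.137 in the guide 1 line, where limma adjusted p was 0.0327 with the block.

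ADM2, a secreted peptide hormone whose fall between replicates was also stated with the choice of genes, had 101 and 38.5 in control line 1, 102 and 18.1 in control line 2, 207 and 126 in the guide 1 line and 179 and 73.6 in the guide 2 line. Replicate 2 was lower in each line. Within replicates 1 and 2 the guide 1 line was 2.04 and 4.43 times and the guide 2 line 1.77 and 2.60 times the control mean, and the differences from controls were 1.61 ± 0.67 and 1.13 ± 0.67 (limma adjusted p 0.185 and 0.33, with the block 0.00147 and 0.00952). STC2, a secreted glycoprotein, lay between 607 and 1344. It was called with the block, lower in the guide 1 line (-0.67 ± 0.23, limma adjusted p 0.0131) and lower in control line 2 than in control line 1 (-0.65 ± 0.26, 0.0477).

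**Figure D4:**
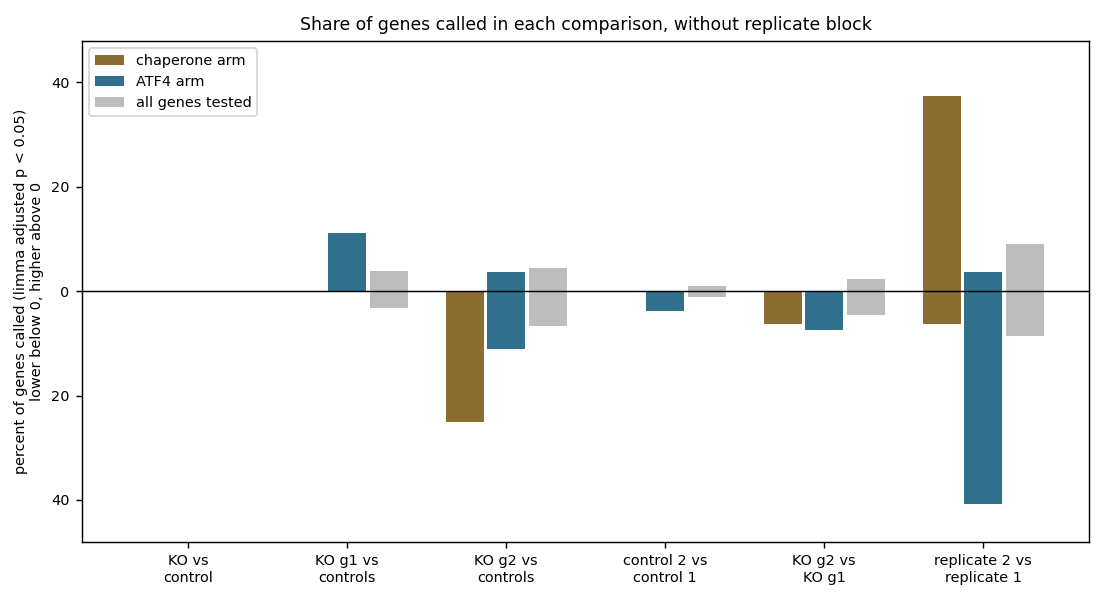
Percent of the 16 chaperone-arm genes, the 27 ATF4-arm genes (CBS and ADM2 included) and all 14040 genes tested that were called in each of 6 comparisons without the replicate block (vertical axis; higher above 0, lower below 0). In replicate 2 against replicate 1 the chaperone-arm bar lies mainly above 0 and the ATF4-arm bar mainly below 0, while the bars for all genes are of like height on both sides.

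Genes of the same pathways outside the 43 were counted from lists named for ER protein quality control (31 of 33 genes tested) and for ATF4 (37 of 39 tested). Like the members, these lists were chosen with earlier results of these data known, so their counts are not independent support. Between replicates, 14 of the 31 ER genes were higher in replicate 2 and 0 lower, with a median log2 difference of 0.12, and 1 of the 37 ATF4-linked genes was higher and 15 lower, with a median of -0.27. Of all genes 8.97% were higher and 8.62% lower, with a median of 0.0015. With equal library totals 10 ER genes were higher, and 1 ATF4-linked gene was higher and 23 lower. In that scaling all genes also moved down, with 795 of 14018 called higher and 1867 lower. The higher ATF4-linked gene was VEGFA (0.84, SE 0.07, limma adjusted p 7.03e-05), a growth factor for blood vessels that other pathways also control. In the guide 1 line, DERL1 (0.50 ± 0.12), of ER protein export, was higher and EDEM2 (-0.76 ± 0.12), of mannose trimming, and the factor CREB3L1 (-1.37 ± 0.31) were lower, and 2 ATF4-linked genes were higher, the tRNA synthetase gene WARS1 (1.09 ± 0.18) and GDF15 (0.87 ± 0.21), a stress cytokine. These counts, 1 higher and 2 lower of 31 and 2 higher of 37, lay near the shares of all genes in that comparison, 3.82% higher and 3.18% lower. CREB3L1 was also lower in control line 2 than in control line 1 (-1.84 ± 0.36).

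In the guide 2 line 5 of the 31 other ER genes were lower and 0 higher, against 6.67% and 4.54% of all genes. The largest differences were in PDIA5, a disulfide isomerase (-1.67 ± 0.32, limma adjusted p 0.0131), and DNAJB11, a BiP cofactor (-1.19 ± 0.26, 0.0208). PDIA5 counts were 758 and 1100.3 in control line 1, 362 and 556 in control line 2, 279 and 439.8 in the guide 1 line and 143 and 282 in the guide 2 line. DNAJB11 counts were 2881 and 3813 in control line 1, 2180.2 and 2809 in control line 2, 1516 and 1955 in the guide 1 line and 906 and 1744 in the guide 2 line. For DNAJB11 all KO-labelled libraries were under all controls. It was the 1 such gene of the 31, against 5.51% of all genes. For PDIA5 the guide 2 line was under all controls, and both libraries of control line 2 were also under both of control line 1. Of the 37 ATF4-linked genes 3 were higher, against 4.54% of all genes, among them GDF15 (0.88 ± 0.21) and EIF4EBP1 (0.57 ± 0.13), a translation inhibitor. Among KO against control labels, 0 genes of either list passed (limma).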

How the data were processed

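Gene counts from polyA RNA-seq of 8 A-498 libraries were analysed. The deposited values are a signal, gene counts divided by 1 factor per library. Per the submitters' processing notes the tools included fastp 0.23.2, HISAT2 2.2.1, featureCounts 2.0.1 and DESeq2 2.11.40.8, with builds hg38 and GRCh38, without their roles or order. Strand use in counting is not given in the sources used here. All values above 0 (100%) were whole multiples of a library's step within a relative tolerance of 1e-06, so whole reads were recovered. Depth was 15784890 to 22631588 reads per library; no molecular identifiers are reported in the labels.

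Tests ran in R 4.3.3 with limma 3.58.1, on the log2 of the value plus 1, which understates fold changes of low genes. The 14040 genes that reached 10 in 2 or more libraries entered, with a mean-variance trend and Benjamini-Hochberg adjustment, and an adjusted p under 0.05 was a call. KO labels were compared with control labels with line as a random block (correlation 0.33, or 0.58 with the replicate block). Single lines were tested in a fit of 1 mean for each line, and replicates in a fit of line and replicate number. edgeR 4.0.16 and DESeq2 1.42.0 were run on the recovered reads as alternatives. Scripts were tested on simulated data.

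Replicate numbers come from the sample titles. The replicate 2 minus replicate 1 differences correlated across 14040 genes at 0.285 to 0.501 in all 6 pairs of lines, above the limit of 0.1 for pairing, so a fit with a replicate block was added.

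Members and lists were chosen with earlier results of these data known. Counts per library are given for members called in any of the 6 comparisons and for HSPA5, XBP1, ATF4, DDIT3, CBS and ADM2, and for other listed genes up to the largest 2 rises and 2 falls per list and comparison. Other alternatives covered the pseudocount, filter, scaling and each library left out. In GENCODE v29, exons of 18 of the 43 genes overlap another gene, 17 on the opposite strand, so their reads may be shared.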

Additional observations from a re-analysis of the deposited data

Results flagged for a closer look

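The second replicate of control line 2 held the lowest SESN2 count of the 4 control libraries, 357, while the other 3 lay between 573 and 598. Its gap to the nearest was 0.898 of the whole range, above Dixon's 95% critical value for 4 samples. Of 86 groups of 4 libraries examined, 1 passed this limit, and chance alone passes about 1 in 20.

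The difference from controls was not the same in both KO-labelled lines for 3 genes, by a limma test of the guide 2 line against the guide 1 line. EIF2AK3 was lower in the guide 2 line by a log2 difference of -0.98 (limma adjusted p 0.0175), DDIT4 by -0.67 (limma adjusted p 0.0163) and SLC7A1 by -0.65 (limma adjusted p 0.0422). The 2 libraries of each line stood on one side of both libraries of the other line for all 3 genes. Each line stands for 1 guide, and ANXA4 RNA was low in the guide 1 line only.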

How the results depend on the processing

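Of the 40 single-gene results, 34 were calls and the rest were uncalled results of KO against control labels. The 34 include the replicate falls of CBS and ADM2, which were known from the choice of genes, so their stability is a description only. edgeR, TMM scaling, both pseudocounts and the filter of 50 kept all 40 on their side of the threshold. Over 674 alternative values of these, 569 kept direction and side of the threshold, 94 lost the call, 11 gained one and 0 changed direction. Of the 94, 88 came from leaving out a library, 4 from equal totals and 2 from no filter. In the KO against control labels comparison, DESeq2 called 6 members and limma with its own mean per line 9, against 0. DESeq2 called 9 in the guide 1 line against 3, and 9 between the guide 2 and guide 1 lines against 3. The replicate block called 24 in the guide 1 line, 21 in the guide 2 line, 5 between control lines and 18 between the guide lines, and kept 0 for KO against control labels. The cause was not tested.

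Leaving out a library gave 0 to 0 calls for KO against control labels, 1 to 9 for the guide 1 line, 3 to 8 for the guide 2 line, 0 to 2 between control lines, 0 to 4 between the guide lines and 9 to 18 between replicates. In the guide 1 line the 9 came without the first replicate of control line 2. The share of all genes called also changed from fit to fit in each comparison, so these ranges do not describe the members alone. Where 1 library of a line is left out, the other is assumed to vary like the rest. Summing CBS with its copy kept its direction. Depth limits CBS, ADM2, CHAC1, CTH and ERN1 most.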
